A study of Rattus norvegicus with 40 samples.

Results

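Cst3 encodes cystatin C, and its row, ENSRNOG00000005195, took more reads than any other gene in microglia of the rat medulla and cervical spinal cord. It was chosen by that measure, the highest share of counts in these same libraries, and it is 1 of 32883 Ensembl gene IDs in the deposited table. The symbol Cst3 came with the choice of the row, since the files hold IDs without names. Libraries came from 8-week-old Sprague Dawley rats whose dams had breathed either room air throughout (normoxia, 21% oxygen) or air that alternated between 10.5% and 21% oxygen (hypoxia). Dams were exposed from gestational day 10 to day 21, with 15 cycles in each hour and 8 hours per day, and all offspring were then born and raised in room air. Microglia are the macrophages that live within brain and spinal cord tissue. They were purified immunomagnetically, by an antibody to CD11b, separately from the medulla and the C3-C6 cord. CD11b is an integrin that other myeloid cells also carry. The 40 libraries formed 8 groups of 5: male and female offspring, normoxia and hypoxia, medulla and cervical cord. Both regions were taken from each of 20 animals, and the replicates of a group were separate animals. The labels name no dam or litter for an animal. Exposure was given to the dams, while the exposure tests treated the offspring of a group as independent.

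Cystatin C is a small secreted protein that inhibits cysteine proteases of the papain family, among them cathepsins B, L and S, by blocking their active site. It is found in nearly all body fluids and is abundant in cerebrospinal fluid. In the central nervous system its transcript is a well-known high-abundance product of microglia, and astrocytes and the choroid plexus also express it. Cathepsins work mainly in lysosomes, where they degrade proteins taken up by the cell, and a secreted inhibitor limits their activity outside it.

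The values that chose Cst3 are given here as a description. Its share of all counted reads averaged 4.30 ± 1.65% (SD over 40 libraries) and ran from 1.55% to 11.0%, with a median of 4.02%. The second gene of the table, ENSRNOG00000021157, averaged 0.939 ± 0.179%, so the first gene stood 4.58-fold above the second in mean share. Cst3 ranked first in 40 of 40 libraries. Its lead over the next gene of the same library was 1.67-fold at its smallest and 8.85-fold at its largest, with a median of 3.97-fold. The identity of that next gene varied among 7 IDs, with ENSRNOG00000018414 in 20 libraries and ENSRNOG00000021157 in 10. These are shares of reads and not per length of transcript, so they do not rank the genes by number of molecules.

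**Figure D1:**
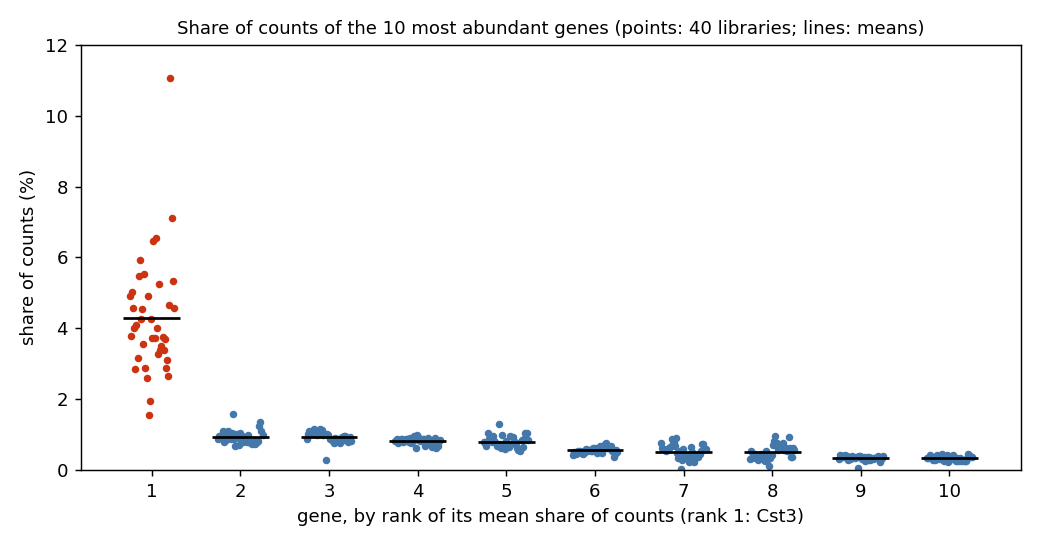
Share of counts (%, vertical axis) of the 10 genes with the highest mean share, by rank (horizontal axis); points are the 40 libraries, lines the means, and Cst3 is rank 1 in red. Cst3 spreads from 1.55% to 11.0%, while the mean of rank 2 is 0.939%.

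Totals per library ran from 6061346 to 24039411 reads, and Cst3 alone held 93963 to 2201275 of them. At this depth counting error is small: the exact Clopper-Pearson 95% interval of a library's share was at most ± 0.635% of the share itself, and it covers counting error only. Female hypoxia medulla replicate 3 had both the lowest total and counts in 13379 genes, the fewest of the 40 libraries. Marker genes could not be looked up, because 0 of the 32883 IDs matched a row of the reference gene table. The labelled cell type was therefore not checked against its markers, and the part of other cell types in the Cst3 values was not tested. In these bulk samples a difference in the cells captured and a difference in Cst3 RNA per cell cannot be told apart.

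The level of Cst3 in the 4 medulla groups is given first, as the share of counts per library. Male normoxia libraries, replicates 1 to 5, held 4.92%, 3.79%, 5.02%, 4.56% and 4.02%. In male hypoxia the shares were 2.85%, 4.10%, 3.17%, 5.49% and 5.93%. The male groups overlapped, and the hypoxia libraries held both the lowest and the highest value. Female normoxia libraries held 4.25%, 4.56%, 3.55%, 5.55% and 2.89%. Under female hypoxia the values were 2.59%, 4.91%, 1.55%, 1.96% and 4.26%. Among the female hypoxia libraries 3 were below every female normoxia library and the other 2 were within their range.

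In the cervical cord, male normoxia libraries held 3.73%, 6.46%, 3.72%, 6.55% and 4.02%, with 2 libraries well above the other 3. Male hypoxia values were 3.28%, 5.25%, 3.40%, 3.51% and 3.76%, and replicate 2 stood above the rest. Female normoxia cord libraries were low and close together, at 3.39%, 3.71%, 2.88%, 3.09% and 2.65%. After hypoxia the female cord held 4.67%, 11.0%, 7.12%, 5.33% and 4.56%. Every one of these 5 was above all 5 female normoxia cord libraries, and replicate 2 had the highest Cst3 share of the series.

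**Figure D2:**
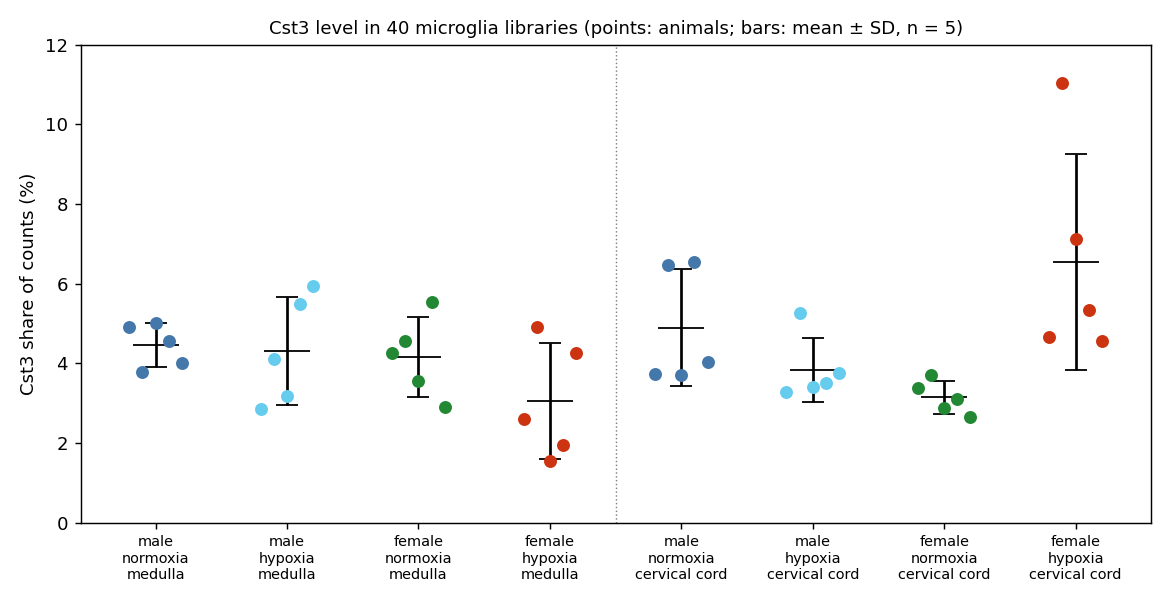
Cst3 level (share of counts, %) in the 8 groups; points are libraries, 1 per animal, and bars the mean ± SD (n = 5). The female hypoxia cord libraries lie above all female normoxia cord libraries, while groups next to each other in the order of means have overlapping ranges.

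Ordered by mean share, the groups ran from the female hypoxia cord at 6.55 ± 2.72% (SD, n = 5) to the male normoxia cord at 4.90 ± 1.47%, the male normoxia medulla at 4.46 ± 0.544% and the male hypoxia medulla at 4.31 ± 1.37%. Then came the female normoxia medulla at 4.16 ± 1.01% and the male hypoxia cord at 3.84 ± 0.810%. The female normoxia cord at 3.14 ± 0.418% and the female hypoxia medulla at 3.06 ± 1.47% were lowest. Each of the 7 neighbouring pairs in this order had overlapping ranges, and their means differed by less than the larger SD of the pair. The ends of the order were 2.14-fold apart, and both were groups of female hypoxia offspring.

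Cst3 varied more between animals of a group than the median gene did. The coefficient of variation of its level was lowest at 12.2% (male normoxia medulla) and 13.3% (female normoxia cord), and reached 41.5% in the female hypoxia cord and 48.0% in the female hypoxia medulla. On edgeR's log2 CPM scale with TMM scaling, its SD within groups was 0.45. The median was 0.28 over the 9384 other genes with an average log2 CPM of at least 3. Among the 100 most abundant other genes that median was 0.29, and 20 of them varied more than Cst3. Of the spread of log2 CPM over all 40 libraries, 43.0% lay between the 8 groups.

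The first comparison asked whether offspring of hypoxia-exposed dams differed in Cst3 from offspring of normoxia-exposed dams. Tests across genes used edgeR's quasi-likelihood test on the raw counts with TMM scaling, and a gene was called at a Benjamini-Hochberg adjusted p under 0.05 over all genes tested. Cst3 rose in the female cervical cord, by a log2 fold change of 1.24 (SE 0.26, 95% interval 0.69 to 1.78), or 2.36-fold (edgeR adjusted p = 0.00126). That call stood among many, since 32.8% of the genes tested were called in this comparison. As plain log2 CPM (counts scaled to 1000000 reads per library, so that 10000 CPM are 1% of counts) the difference was 0.98, or 1.98-fold, with no overlap between the 5 and 5 libraries (exact two-sided permutation test, p = 0.00794, the smallest this design allows; 0.0476 after Benjamini-Hochberg adjustment over the 12 comparisons tested in this way). Without the library of highest share, female hypoxia cord replicate 2, the log2 fold change was 0.91 (edgeR adjusted p = 0.00413). Without female normoxia cord replicate 3 or replicate 5 the adjusted permutation p was 0.0952.

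Abundant genes as a group also tended upward in the female cord after hypoxia. Of the 100 most abundant genes there, Cst3 included, 41 were called higher and 10 lower, with a median log2 fold change of 0.26, against -0.01 over all 13593 genes, of which 18.2% were called higher and 14.6% lower. The change of Cst3 exceeded most of theirs, with 5 of the 100 further from 0. Over all genes tested, 7.47% had a change further from 0. The 9 genes that followed Cst3 in mean share summed to 5.40 ± 0.364% of counts in the female normoxia cord and to 6.08 ± 0.222% in the female hypoxia cord (SD, n = 5). Set against that sum, Cst3 stood at 0.455 to 0.699 in normoxia and at 0.763 to 1.87 in hypoxia, so the groups did not overlap on this ratio either. Scaling without the 10 most abundant genes gave a log2 fold change of 1.23.

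Depth moved with exposure in the female cord and, the other way, in the male medulla. Female cord totals averaged 10537600 ± 1921870 reads in normoxia and 17772800 ± 2821290 in hypoxia (SD, n = 5). The highest normoxia total there was 13327037 and the lowest hypoxia total 13570283, so these groups did not overlap in depth. Male medulla totals averaged 20290200 ± 2495020 and 12315400 ± 1256380, also with no overlap. The means were 13225400 and 10117700 in the male cord, and 13489200 and 13377000 in the female medulla. The part of depth in the Cst3 differences was not tested between the groups. Within the cord groups, the deviations of log2 CPM and log2 total from their group means were related by r = -0.06 (Spearman's rho = -0.10) over 20 libraries, with permutation p of 0.824 and 0.694. Without the 2 libraries whose deviation in log2 total lay farthest from the median deviation, r was -0.01. The same measure in the medulla gave r = 0.58 (rho = 0.36), with permutation p of 0.0568 and 0.183 and an adjusted p of 0.284 over the 5 correlations tested. Leaving out the 2 medulla libraries chosen in the same way gave r = 0.26, so the larger value rested on those libraries.

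**Figure D3:**
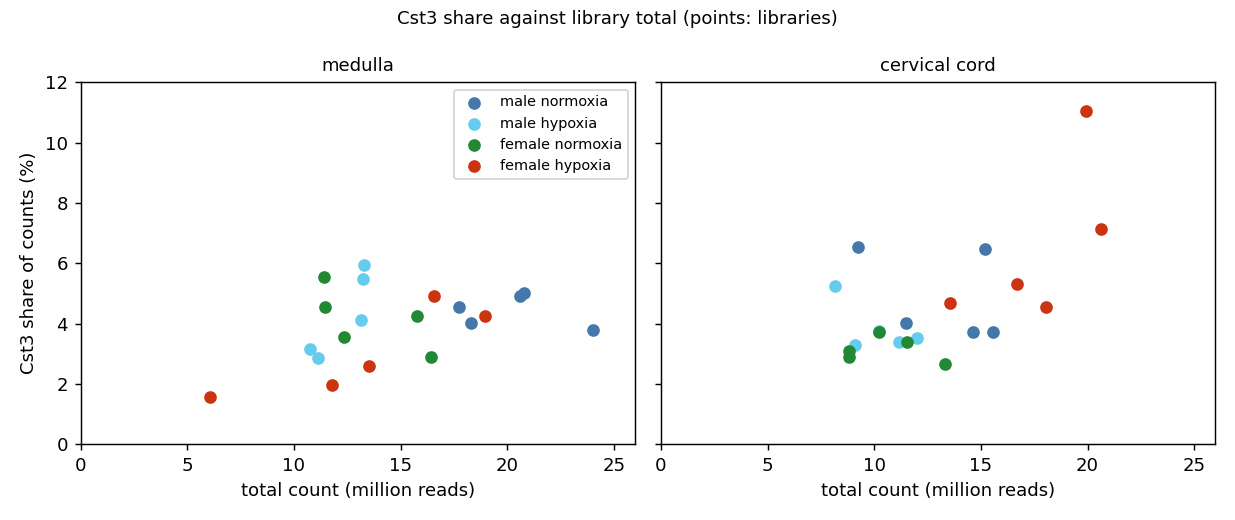
Cst3 share of counts (%, vertical axis) against the total count of the library (horizontal axis, in units of 1000000 reads) in the medulla (left) and cervical cord (right); points are libraries, coloured by sex and exposure. In the cord the female hypoxia group has both the highest mean total and the highest mean share, with ranges that overlap those of male normoxia in both. In the medulla the library with the lowest total, 6061346 reads, has the lowest share, 1.55%.

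No change of Cst3 was called in the other 3 exposure comparisons. In the female medulla the log2 fold change for hypoxia was -0.45 (SE 0.30, 95% interval -1.09 to 0.18, edgeR adjusted p = 0.463). It was -0.31 without female hypoxia medulla replicate 3, -0.30 without female normoxia medulla replicate 4 and -0.23 with limma voom and quality weights. In the male cord it was -0.37 (SE 0.26, 95% interval -0.90 to 0.17, edgeR adjusted p = 0.778), and in the male medulla -0.02 (SE 0.30, 95% interval -0.65 to 0.61). The male cord value was -0.23 without male normoxia cervical cord replicate 4 and -0.24 without replicate 2 of that group, and the male medulla value was -0.31 with limma voom. The male medulla interval spans changes of over 1.5-fold in either direction. In each of the 3 comparisons edgeR called 0 genes in all (0%). At an unadjusted p under 0.05 were 2180 of 14151 genes in the female medulla, 841 of 13593 in the male cord and 122 of 14151 in the male medulla. DESeq2 called 60, 1 and 0 genes there, and limma voom with quality weights 1, 0 and 0. The count of 0 in the female medulla thus depended on the method, and also on the libraries fitted. An edgeR fit to all 40 libraries, in place of the 20 of the medulla, called 513 of 14832 genes. Cst3 had an edgeR adjusted p of 0.369 there. The reason for the higher count was not tested. The exact permutation p for Cst3 was 0.167 in the female medulla, 0.190 in the male cord and 0.667 in the male medulla, before adjustment.

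The exposure difference was then tested for a difference between the sexes. In the cord the response of Cst3 was higher in females by 1.61 on the log2 scale (SE 0.37, 95% interval 0.85 to 2.37, edgeR adjusted p = 0.00403), an interaction for which 23.2% of genes were called. Under normoxia, male cord libraries averaged 48955 CPM and female ones 31447 CPM. Under hypoxia the order turned, with 38380 CPM in males and 65464 CPM in females. In the medulla the interaction was -0.43 (SE 0.43, 95% interval -1.33 to 0.46, edgeR adjusted p = 0.834), and 0.076 with limma voom and quality weights. There edgeR called 0 genes (0%), with 879 of 14151 at an unadjusted p under 0.05, while DESeq2 called 2 and limma voom 1.

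Direct comparisons of the sexes within an exposure gave opposite signs in the cord. After hypoxia Cst3 was higher in females by 0.91 on the log2 scale (SE 0.26, 95% interval 0.37 to 1.45, edgeR adjusted p = 0.0190), with 19.6% of genes called. The ranges overlapped through male hypoxia cord replicate 2 at 5.25%, and the exact permutation p was 0.0238, or 0.0952 adjusted. That edgeR call was lost without female hypoxia cord replicate 2, at a log2 fold change of 0.59 and an adjusted p of 0.0831, and without male hypoxia cord replicate 1, at 0.83 and 0.0502. Under normoxia the log2 fold change was -0.70 (SE 0.26, 95% interval -1.23 to -0.16), which edgeR did not call (adjusted p = 0.101; 6.56% of genes called). The 5 female normoxia cord libraries were nevertheless all below the 5 male ones, by the narrow step from 3.71% to 3.72%, and the exact permutation p was 0.00794, or 0.0476 adjusted. That adjusted p ranged from 0.0476 to 0.127 when single libraries were left out. Leaving out male replicate 2, male replicate 4 or female replicate 2 gave 0.0952, and leaving out female replicate 1, 3, 4 or 5 gave 0.127.

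In the medulla the sexes were not told apart by Cst3. The female over male log2 fold change was -0.07 under normoxia (SE 0.30, 95% interval -0.70 to 0.57) and -0.50 under hypoxia (SE 0.30, 95% interval -1.14 to 0.13, edgeR adjusted p = 0.446), in comparisons where 0.0707% and 0.0777% of genes were called. The second value was -0.35 without female hypoxia medulla replicate 3, -0.31 without male hypoxia medulla replicate 5 and -0.03 with limma voom and quality weights. Its comparison had 333 of 14832 genes called when the fit held all 40 libraries, in place of 11 of 14151. Cst3 was still not called in the fit to all 40 (edgeR adjusted p = 0.331).

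**Figure D4:**
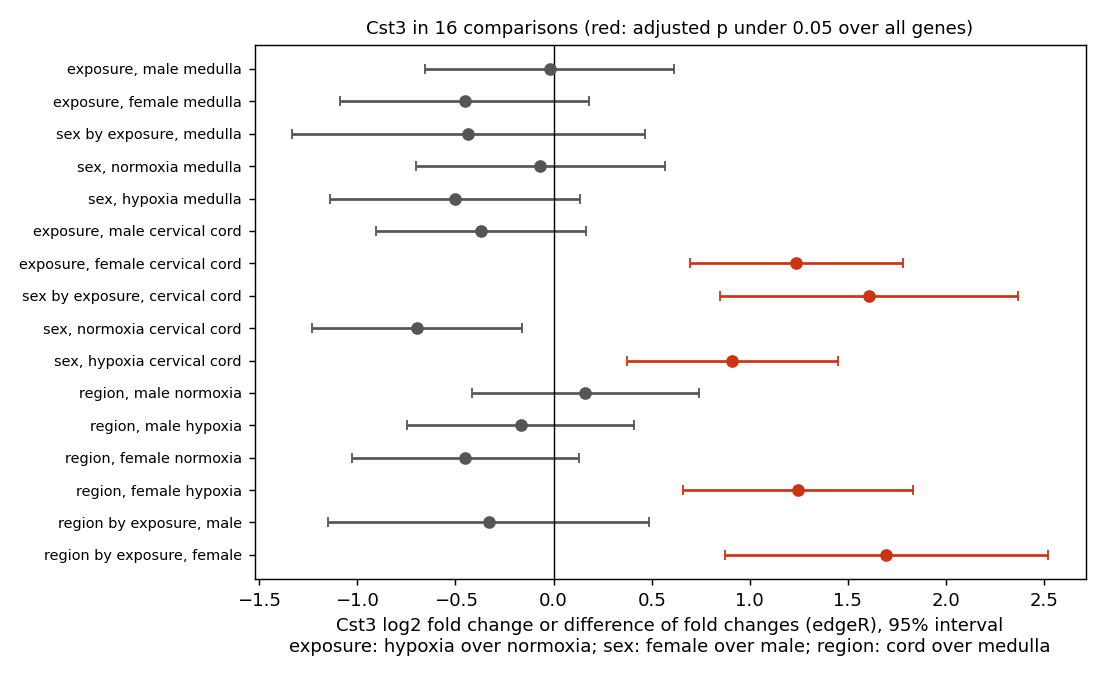
Cst3 log2 fold change (horizontal axis) with its 95% interval in 16 edgeR comparisons (vertical axis); "by" marks a difference of 2 fold changes, and red marks an adjusted p under 0.05. The 5 red comparisons all involve the female hypoxia cord libraries.

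Cord and medulla were compared in the same animals. In normoxia females Cst3 was lower in the cord than in the medulla in 5 of 5 animals, with cord over medulla ratios of 0.80, 0.81, 0.81, 0.56 and 0.92 in replicates 1 to 5. In hypoxia females it was higher in the cord in 5 of 5 animals, with ratios of 1.80, 2.25, 4.59, 2.72 and 1.07. The ratios of these groups did not overlap. Replicate 3, with the highest ratio, is the animal whose medulla library was the shallowest of the series. Male normoxia ratios were 0.76, 1.70, 0.74, 1.44 and 1.00, and male hypoxia ratios 1.15, 1.28, 1.07, 0.64 and 0.63. The cord was thus higher in 3 of 5 males of either exposure, by as little as 1.00-fold, and over the 20 animals in 11.

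**Figure D5:**
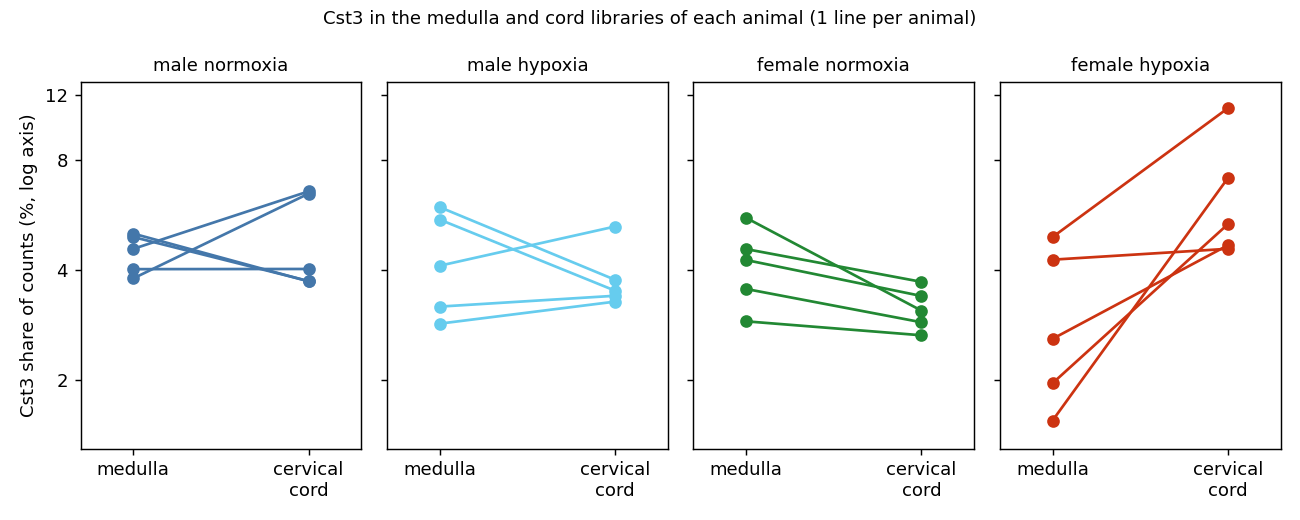
Cst3 level (share of counts, %, log axis) in the medulla and cervical cord libraries of the same animal, 1 line per animal, in the 4 groups of sex and exposure. Lines fall from medulla to cord in 5 of 5 normoxia females and rise in 5 of 5 hypoxia females; in males of either exposure they go both ways.

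Between the regions, Cst3 was called in 1 of 4 comparisons, that of hypoxia females, with a log2 fold change of 1.25 for cord over medulla (SE 0.29, 95% interval 0.66 to 1.83, edgeR adjusted p = 0.00238; 26.2% of genes called). The fits of these 4 comparisons were unpaired, with no term for the animal. With the animals added to the fit as a block, the value in hypoxia females was 1.28 (SE 0.25, edgeR adjusted p = 0.00114). The call depended on the libraries fitted and on the method. With only the 10 libraries compared, the edgeR adjusted p was 0.150, at a log2 fold change of 1.23. With limma voom and quality weights on all 40 libraries the adjusted p was 0.0513, at 0.81. The fit to those 10 libraries called 132 of 13337 genes, against 3886 of 14832 with all 40. Without female hypoxia medulla replicate 3 the log2 fold change was 1.11 (edgeR adjusted p = 0.00888). In normoxia females it was -0.45 (SE 0.29, edgeR adjusted p = 0.338; 5.87% of genes called). In males it was 0.16 under normoxia (SE 0.28, 6.55% of genes called) and -0.17 under hypoxia (SE 0.28, 7.76% of genes called). An exact sign-flip test over 5 animals cannot go below 0.0625, and it gave that value in both female comparisons, 0.688 in normoxia males and 0.563 in hypoxia males.

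The cord over medulla difference itself differed by exposure in females. The interaction was 1.70 on the log2 scale (SE 0.41, 95% interval 0.87 to 2.52, edgeR adjusted p = 0.00441; 20.8% of genes called), and 1.54 without female hypoxia medulla replicate 3. That fit was also unpaired. With the animals added as a block the interaction was 1.69 (SE 0.34, edgeR adjusted p = 0.002). Taken per animal, the mean log2 ratio was 1.15 in hypoxia and -0.38 in normoxia females, and the exact two-sided permutation p for this difference was 0.00794, in a test chosen after seeing the data. In males the interaction was -0.33 (SE 0.40, 95% interval -1.15 to 0.49), in a comparison where edgeR, DESeq2 and limma voom called 0 genes (0%). With edgeR 279 of 14832 genes had an unadjusted p under 0.05 there. The mean log2 ratios of males were -0.13 in hypoxia and 0.09 in normoxia, and the exact permutation p was 0.484, in a test likewise chosen after seeing the data. The female comparisons by exposure, sex and region share the female hypoxia cord libraries, so they are not independent of each other.

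Animals with a high Cst3 level in the medulla were not detectably those with a high level in the cord. The deviations from group means were related by r = 0.19 (rho = 0.09) over 20 animals, with permutation p of 0.59 and 0.741 and an adjusted p of 0.905. Without the 2 animals whose medulla deviation lay farthest from the median deviation, r was 0.01. It was -0.05 over the 10 males and 0.32 over the 10 females, with permutation p of 0.905 and 0.534.

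Other genes followed Cst3 closely from library to library. By Pearson's r of log2 CPM with TMM scaling over the 40 libraries, the most alike of 9384 genes were ENSRNOG00000027864 at 0.97 and ENSRNOG00000047931 at 0.96. Both also led when group means were removed, at 0.96 each. The files do not give their names. ENSRNOG00000047931 had 1430 to 2224 CPM in the female normoxia cord and 2836 to 9189 CPM in the female hypoxia cord, and its means in the medulla of females were 3110 ± 859 CPM in normoxia and 2142 ± 1516 CPM in hypoxia (SD, n = 5). ENSRNOG00000027864 had 229.8 to 304 CPM and 348 to 866 CPM in the same cord groups. For both, as for Cst3, the female cord groups did not overlap and the female hypoxia cord had the highest mean of the 8 groups. Both were chosen by their r with Cst3 over these same libraries, so the shared pattern follows from the choice.

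The least alike genes, chosen by the lowest r, ran opposite to Cst3. ENSRNOG00000002645 had an r of -0.87 and ENSRNOG00000016725 an r of -0.86. The first averaged 48.6 ± 3.77 CPM in the female normoxia cord and 32.5 ± 6.54 CPM in the female hypoxia cord, its highest group mean being 53.2 ± 12.7 CPM in the female hypoxia medulla. Over all 9384 genes the median r was 0.00, with 19.2% above 0.5 and 14.3% below -0.5. These values describe libraries that share groups, depth and scaling, and carry no test.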

How the data were processed

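The data are raw read counts per Ensembl gene ID, as deposited by the authors, with 1 column per library for 40 libraries. The submitters' processing notes name TopHat2 2.1, HTSeq, edgeR and build rn6, with no role or order. For the annotation, the strand setting and the filters, nothing is stated in the labels or the file header, and reads of overlapping genes may be shared. The reference gene table holds 47357 rows, 0 of them with an Ensembl ID, so the lists of cystatins, cathepsins and cell type markers were not looked up and no protein sequence is shown.

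Shares and CPM were computed from the totals of each column. The SDs within groups on the log2 scale, the correlations of other genes with Cst3 and those between libraries used edgeR's log2 CPM. That scale had TMM scaling and a prior count of 2. Differences were tested with edgeR 4.0.16 in R 4.3.3 (quasi-likelihood F test, TMM, filterByExpr with a minimum count of 10) on 20 libraries of a region for exposure and sex, and on all 40 for region. Standard errors were derived from the fold change and its F statistic. Single values were compared by exact permutation with SciPy 1.17.1, and correlations with 100000 permutations within groups. Alternatives were RLE factors, no filter, DESeq2 1.42.0, limma 3.58.1 voom with quality weights, other library sets, scaling without the 10 most abundant genes, a block, and leaving out each library. Named IDs are the most abundant genes and those with the highest and lowest correlation with Cst3, at most 2 of each kind. Cst3, the lists and the tests were chosen with earlier results of these data known. By the series design, equal numbers in medulla and cord mark 1 animal. Over all genes their deviations from group means correlated positively in 20 of 20 animals (0.07 to 0.42), and above 0.1 in 14.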

Additional observations from a re-analysis of the deposited data

Results flagged for a closer look

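In the male hypoxia cord the highest library, replicate 2 with 52513.5 CPM of Cst3, lay far from the other 4, with a gap of 0.76 of the group's range where 0.71 marks an unusual gap for 5 values. Chance flags about 1 in 20 groups, and 8 groups were looked at.

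The exposure response of Cst3 differed between the sexes in the cord, by 1.61 on the log2 scale, and the difference between cord and medulla differed by exposure in females, by 1.70. Both rest on the female hypoxia cord libraries.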

How the results depend on the processing

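The 5 edgeR calls of Cst3 kept their direction under every alternative run. The call between the regions in hypoxia females was lost with limma voom and quality weights (0.81) and with only the libraries compared (1.23). When single libraries were left out, the log2 fold change of Cst3 ranged from 0.91 to 1.35 for exposure in the female cord, from 1.28 to 1.76 for its interaction with sex, from 0.59 to 1.05 between the sexes in the hypoxia cord, from 0.92 to 1.48 between the regions in hypoxia females and from 1.37 to 1.93 for region by exposure in females. The call between the sexes in the hypoxia cord was the one lost in this way. Differences of log2 CPM under permutation ranged from 0.77 to 1.09 for exposure in the female cord and from -0.68 to -0.48 for sex in the normoxia cord.

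Several values without a call changed sign, and not all were near 0. With limma voom the interaction of sex and exposure in the medulla was 0.076, against -0.43 with edgeR. Region in hypoxia males was 0.0973 against -0.17, and region by exposure in males 0.0314 against -0.33. Leaving out single libraries gave -0.188 to 0.0784 for exposure in the male medulla and -0.20 to 0.0459 for sex in the normoxia medulla with edgeR. Under permutation the ranges were -0.231 to 0.0332 for exposure in the male medulla, -0.0774 to 0.223 for region in normoxia males and -0.251 to 0.00218 for region in hypoxia males. Without removing group means the correlation of medulla and cord was -0.17, and with shares of counts that of the cord with library total was 0.0408. The cause of these shifts was not tested.

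Under a replicate block, the sex difference in the normoxia cord was called (log2 fold change -0.66, edgeR adjusted p = 0.0421). No label says that equal numbers mark a litter. Over all genes, deviations from group means of same-numbered libraries correlated above 0.1 in 12 of 20 pairs between the sexes (-0.41 to 0.72). Between exposures 6 of 20 did so (-0.40 to 0.40). The regions of an animal, paired by design, did so in 14 of 20. This count therefore cannot decide what equal numbers mark between the sexes. The replicate number changed no other call of Cst3, and the block by animal changed no region call.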
